A study of Mus musculus with 8 samples.

Results

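The 6 genes of the platelet-derived growth factor (PDGF) system, the ligand genes Pdgfa, Pdgfb, Pdgfc and Pdgfd and the receptor genes Pdgfra and Pdgfrb, were followed in cells sorted from Eml4-Alk mouse lungs. They were taken by gene identity from a table of read counts for 27179 genes, in which all 6 had a row and all 6 passed the filter on low counts that left 15583 genes for testing. Bulk RNA-seq had been run on 4 libraries of QZ1-hi cells, labelled QZ+, and 4 libraries of QZ1-lo cells, labelled QZ-. Both groups came from C57BL/6 mice (C57BL/6J in the study's methods) aged 18 to 22 weeks that carried an Eml4-Alk rearrangement, labelled a translocation and made in the lung by an adenovirus delivering Cas9 and guide RNAs, and that were 11 to 12 weeks past tumor induction. All animals had received 4.5 nmol of QZ1-(PEG2K) by tail vein, an activatable peptide probe that becomes fluorescent and tags nearby cells once proteases cut it, and lungs were removed 2 h later. Cells that were alive and lacked CD45 and CD11b were then sorted on the probe signal plotted against EpCAM, with at least 100000 cells per population. The question was which transcripts differ between cells with high and with low probe signal. Cells of intermediate signal fell between the 2 gates and were in neither population. The study's methods describe cutting tumors away from the surrounding tissue before both were made into cell suspensions, but do not say whether either or both were sorted here, and the labels give the tissue only as lung. The sorted populations are mixtures of cell types, and no lung without tumors or without probe was part of the comparison. In such bulk samples, fewer cells of a type and less RNA per cell cannot be told apart.

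PDGF ligands are secreted dimers that bind and pair receptor tyrosine kinases on neighbouring cells. PDGF-A, PDGF-B, PDGF-C and PDGF-D chains differ in the receptor they prefer: PDGFRα binds the A, B and C chains, whereas PDGFRβ binds mainly the B and D chains. In the lung, epithelium is a known source of PDGF-A, which acts on PDGFRα-positive fibroblasts during alveolar development, and endothelium is a known source of PDGF-B, which draws PDGFRβ-positive pericytes to vessels. PDGF-C and PDGF-D are made as latent chains whose CUB domain has to be cut away by extracellular proteases before they can bind.

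The 250 bases upstream of the transcription start were available from RefSeq (GRCm38.p6) for 4 of the 6 genes, Pdgfa, Pdgfc, Pdgfd and Pdgfra. Pdgfra and Pdgfd are shown because both were higher in QZ1-hi cells, and Pdgfa because its level lay the other way. Capitals mark a TATA box (TATAAA) or a GC box (GGGCGG or its reverse complement CCGCCC).
Pdgfra, chr5:75152001-75152250, plus strand: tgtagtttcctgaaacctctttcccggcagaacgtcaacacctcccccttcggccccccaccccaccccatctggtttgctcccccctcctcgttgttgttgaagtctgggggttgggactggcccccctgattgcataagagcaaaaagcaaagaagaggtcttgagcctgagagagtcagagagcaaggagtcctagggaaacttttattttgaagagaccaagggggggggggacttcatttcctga
Pdgfd, chr9:6168236-6168485, plus strand: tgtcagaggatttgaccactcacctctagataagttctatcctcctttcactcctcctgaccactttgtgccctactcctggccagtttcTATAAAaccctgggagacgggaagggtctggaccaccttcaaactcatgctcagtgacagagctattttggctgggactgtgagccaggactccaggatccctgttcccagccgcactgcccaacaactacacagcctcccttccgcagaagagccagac
Pdgfa, chr5:138994945-138995194, minus strand: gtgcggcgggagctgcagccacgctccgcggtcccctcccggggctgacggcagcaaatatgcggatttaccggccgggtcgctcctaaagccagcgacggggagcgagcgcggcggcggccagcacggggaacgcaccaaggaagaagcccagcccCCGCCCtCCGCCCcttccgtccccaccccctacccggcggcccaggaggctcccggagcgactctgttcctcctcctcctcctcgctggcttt
The Pdgfra window held none of the 4 motifs searched on both strands, which were the TATA and GC boxes, the CCAAT box (spelled CCAAT) and the CArG box. It had 4 CpG dinucleotides. The Pdgfd window held 1 TATA box, a motif present in 12.4% of 32851 upstream windows of the same length, and 3 CpG dinucleotides. That TATA box lay nearer the upstream end of the window than the transcription start. The Pdgfa window held 2 GC boxes that did not overlap, a motif present in 32.7% of all windows, and 28 CpG dinucleotides, a number reached by 7.61% of windows. A second Pdgfa start in the table, at chr5:138994282-138994531, had 1 GC box and 19 CpG dinucleotides. The Pdgfc window, at chr3:81036166-81036415, held 1 CArG box, the element bound by serum response factor and present in 1.47% of windows. The median window had 6 CpG dinucleotides. These matches describe letters only and do not show that a factor was bound.

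Each library held between 18380918 and 26847938 counts. Levels are given as CPM, a gene's reads relative to the library size after scaling by edgeR's TMM factors, and 3 reads, the floor used here, correspond to 0.0894 to 0.179 CPM. Mitochondrial ribosomal RNA took 50.1% ± 8.76 of the reads of QZ1-hi libraries and 37.3% ± 7.50 of those of QZ1-lo libraries (SD, n = 4 each; two-sided exact permutation test, p = 0.0857). Nothing in the labels pairs libraries of the 2 populations or says that the libraries came from separate mice, so p-values measure the spread between these libraries, part of which may be technical. Replicate numbers below only name libraries.

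Expression of both PDGF receptors and of the ligand Pdgfd was higher in QZ1-hi than in QZ1-lo cells, by 10.4-fold for Pdgfra, 7.95-fold for Pdgfd and 6.75-fold for Pdgfrb. Levels of Pdgfa, Pdgfb and Pdgfc did not pass the edgeR quasi-likelihood test at a Benjamini-Hochberg adjusted p of 0.05. Thus 3 of 6 members were called higher and 0 lower, where 9.88% of all genes tested were called higher and 8.21% lower. At an unadjusted edgeR p under 0.05, 3 members were higher and 1, Pdgfa, was lower. DESeq2 and limma voom gave the same counts by adjusted p. Of all genes tested, DESeq2 called 1812 higher and 1606 lower, and limma voom 1697 and 1289. The share of all genes under the unadjusted p was not counted, here or for the lists below. The same 3 members had no overlap between the libraries of the 2 groups, with every QZ1-hi library above every QZ1-lo library, as did 11.9% of all genes tested. Complete separation in the other direction was seen for 0 members and for 10.7% of all genes.

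**Figure D1:**
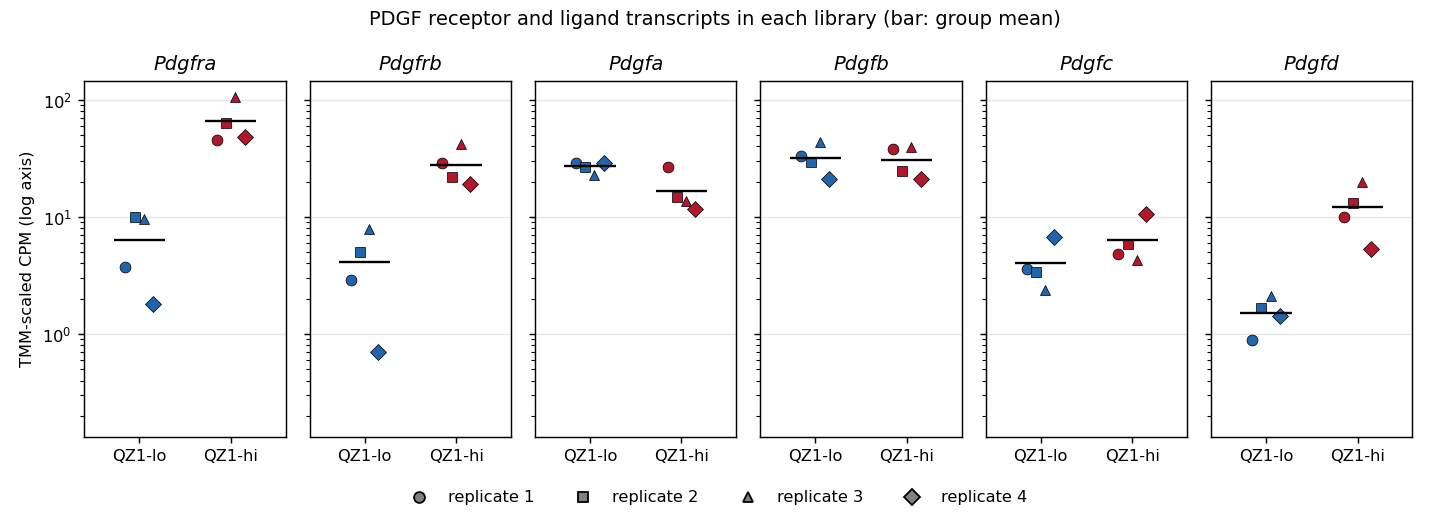
Transcript levels of the 6 PDGF genes in each library, in TMM-scaled CPM on a log axis, with QZ1-lo in blue, QZ1-hi in red, 1 symbol shape per replicate number and a bar at each group mean. Pdgfra, Pdgfrb and Pdgfd separate the groups completely, whereas Pdgfb lies between 21.04 and 43.3 CPM in all 8 libraries.

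Pdgfra encodes a receptor that marks alveolar and adventitial fibroblasts of the lung, and the study used it as a myofibroblast marker. The gene lies on the plus strand at chr5:75152292-75198215 (GRCm38, GENCODE M21), with 10024 exonic bases. Its level was 45.3, 63.7, 105 and 48.4 CPM in QZ1-hi replicates 1 to 4 and 3.73, 10.05, 9.59 and 1.80 CPM in QZ1-lo replicates 1 to 4. The lowest QZ1-hi library thus stood above the highest QZ1-lo library, and the spread within QZ1-lo cells was wide, with replicate 4 lowest. The means were 65.6 ± 27.5 CPM (SD, n = 4) and 6.29 ± 4.15 CPM (SD, n = 4). The log2 fold change was 3.38 (SE 0.49, 95% interval 2.31 to 4.46, edgeR adjusted p = 0.000876), and 1.19% of the genes tested had a larger one. On the antisense strand, Gm42802 shares 456 of its exonic bases (4.55%) and Gm42803 shares 166. The microRNA gene Mir7025 shares 30 on the same strand. The strand setting of the authors' counting is not given in the sources used here, so the source of reads over these bases is uncertain.

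Pdgfrb encodes the receptor of pericytes, smooth muscle cells and some fibroblasts, and lies on the plus strand at chr18:61045150-61085061 with 5478 exonic bases. QZ1-hi replicates 1 to 4 had 28.8, 21.8, 42.3 and 18.9 CPM, and QZ1-lo replicates 1 to 4 had 2.89, 5.04, 7.89 and 0.696 CPM. The groups did not overlap, and QZ1-lo replicate 4 was the lowest library. The means were 27.9 ± 10.4 and 4.13 ± 3.07 CPM (SD, n = 4 each), and the log2 fold change was 2.76 (SE 0.54, 95% interval 1.57 to 3.94, edgeR adjusted p = 0.00459).

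Pdgfd, whose product is the latent ligand for PDGFRβ, lies on the plus strand at chr9:6168584-6378850 with 3154 exonic bases. It was the only ligand gene of the 4 to pass the edgeR test. QZ1-hi replicates 1 to 4 had 10.04, 13.1, 19.9 and 5.36 CPM, and QZ1-lo replicates 1 to 4 had 0.894, 1.67, 2.10 and 1.43 CPM. All QZ1-lo libraries stayed close together, while the QZ1-hi libraries spread widely above them, with replicate 4 the lowest. The means were 12.1 ± 6.09 and 1.52 ± 0.502 CPM (SD, n = 4 each), and the log2 fold change was 2.99 (SE 0.41, 95% interval 2.08 to 3.90, edgeR adjusted p = 0.000726). These levels rest on 937 reads in QZ1-hi and 164 in QZ1-lo libraries.

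Pdgfa encodes a ligand for PDGFRα and lies on the minus strand at chr5:138976014-138997370. QZ1-hi replicates 1 to 4 had 26.6, 14.9, 13.7 and 11.6 CPM, and QZ1-lo replicates 1 to 4 had 29.0, 26.9, 22.9 and 28.9 CPM. Of the QZ1-hi libraries, 3 of 4 lay below all QZ1-lo libraries, whereas replicate 1 lay among them. The means were 16.7 ± 6.76 and 26.9 ± 2.83 CPM (SD, n = 4 each), and the log2 fold change was -0.69 (SE 0.24, 95% interval -1.21 to -0.16, edgeR adjusted p = 0.0720). Of 8 other tools, scalings and filters, 3 put this gene past the threshold, and of 8 fits with 1 library left out, 1 did. DESeq2 gave -0.70 with an adjusted p of 0.0353, where 10.3% of genes were called lower, and limma voom gave -0.74 with an adjusted p of 0.0269, where 8.27% were called lower. The left-out fit that called it dropped QZ1-hi replicate 1, the library that lay among the QZ1-lo libraries. There edgeR gave -1.01 with an adjusted p of 0.00306, where 6.92% of genes were called lower. The long noncoding gene 6330403L08Rik shares 813 of the 3119 exonic bases of Pdgfa on the opposite strand (26.1%), so the source of reads over those bases is uncertain.

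Pdgfb encodes the ligand by which endothelium holds pericytes, and lies on the minus strand at chr15:79995874-80014977. QZ1-hi replicates 1 to 4 had 38.1, 24.5, 39.4 and 21.04 CPM, and QZ1-lo replicates 1 to 4 had 32.8, 29.3, 43.3 and 21.2 CPM. The 2 groups covered nearly the same range. The means were 30.8 ± 9.34 and 31.7 ± 9.15 CPM (SD, n = 4 each), and the log2 fold change of -0.04 had a 95% interval of -0.59 to 0.51 (edgeR adjusted p = 0.941). In fold terms the interval ran from 0.665 to 1.42, so that smaller differences in either direction were not resolved.

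Pdgfc encodes the other latent ligand, which binds PDGFRα, and lies on the plus strand at chr3:81036416-81214040. QZ1-hi replicates 1 to 4 had 4.83, 5.83, 4.28 and 10.5 CPM, and QZ1-lo replicates 1 to 4 had 3.58, 3.38, 2.39 and 6.75 CPM. The groups overlapped, and 1 of 4 QZ1-hi libraries lay above all QZ1-lo libraries. The means were 6.37 ± 2.86 and 4.02 ± 1.89 CPM (SD, n = 4 each), and the log2 fold change was 0.66 (SE 0.39, 95% interval -0.19 to 1.51, edgeR adjusted p = 0.301).

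Levels of different genes were compared only per kilobase of exon (RPKM, from TMM-scaled CPM). The lengths were the merged exons of each gene, such as 10024 bases for Pdgfra and 4161 for Pdgfb. No other lengths were tried, so orders, shares and ratios between genes hold for these lengths only. In mean CPM, Pdgfra stood above Pdgfb in QZ1-hi cells, at 65.6 ± 27.5 and 30.8 ± 9.34 (SD, n = 4 each). In QZ1-hi cells the mean levels ran from Pdgfb (7.40 ± 2.24 RPKM) through Pdgfra (6.55 ± 2.75), Pdgfa (5.35 ± 2.17), Pdgfrb (5.10 ± 1.90) and Pdgfd (3.84 ± 1.93) to Pdgfc (1.25 ± 0.561; SD, n = 4 each). Each neighbouring pair in that order overlapped between libraries. In QZ1-lo cells Pdgfa (8.63 ± 0.908 RPKM) and Pdgfb (7.61 ± 2.20) overlapped each other and stood above the other four, for which the highest library reached 1.44 RPKM. Those were Pdgfc (0.791 ± 0.372), Pdgfrb (0.754 ± 0.561), Pdgfra (0.628 ± 0.414) and Pdgfd (0.483 ± 0.159), with overlapping ranges.

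The receptors took 30.9%, 39.3%, 46.4% and 39.8% of the summed RPKM of the family in QZ1-hi replicates 1 to 4, and 4.71%, 10.2%, 11.3% and 1.87% in QZ1-lo replicates 1 to 4. The summed ligand level differed by less than the spread between libraries, at 17.8 ± 4.38 RPKM in QZ1-hi and 17.5 ± 1.25 RPKM in QZ1-lo (SD, n = 4 each). Its makeup differed without overlap. Pdgfa and Pdgfb together gave 66.0% to 81.1% of ligand RPKM in QZ1-hi libraries and 89.0% to 94.6% in QZ1-lo libraries, the remainder being Pdgfc and Pdgfd. Pdgfd exceeded Pdgfc per length in 3 of 4 QZ1-hi libraries (3.35 to 7.50 times) but not in replicate 4 (0.820 times), and in 1 of 4 QZ1-lo libraries, replicate 3 (1.42 times). The ratio of Pdgfra to Pdgfrb lay between 0.860 and 1.59 in QZ1-hi and between 0.664 and 1.41 in QZ1-lo libraries, so the groups overlapped in the balance of the receptors while differing in their level.

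**Figure D2:**
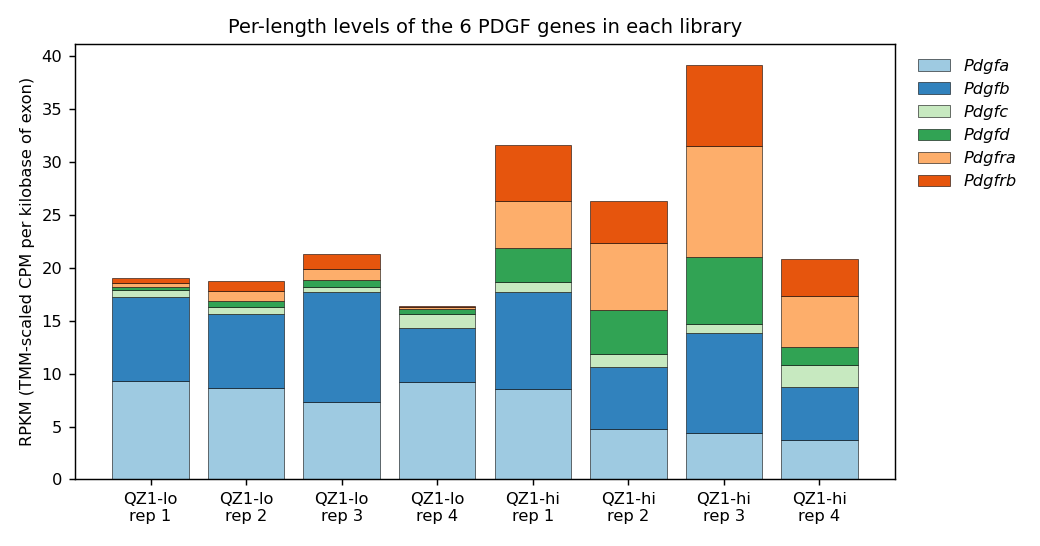
Stacked RPKM (TMM-scaled CPM per kilobase of exon) of the 6 PDGF genes in each library, ligands in blue and green and receptors in orange. Summed receptor levels run from 8.28 to 18.2 RPKM in QZ1-hi and from 0.307 to 2.40 RPKM in QZ1-lo libraries.

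Markers of the cell types known to carry these genes moved with the groups too, and their part in the PDGF results was not tested. All 10 endothelial markers rose, and their summed level was 1294 to 2882 CPM in QZ1-hi and 93.3 to 385 CPM in QZ1-lo libraries. Of 11 fibroblast markers tested, 7 rose and 0 fell, with sums of 1108 to 2273 and 78.9 to 280 CPM. Of 10 pericyte markers, 4 rose (Kcnj8, Abcc9, Des and Trpc6) and 0 fell, DESeq2 calling 6 higher, with sums of 68.5 to 107 and 12.9 to 26.5 CPM. At an unadjusted edgeR p under 0.05, where the share of all genes was not counted, 9 of the 10 were higher and 0 lower. By limma voom, 4 were called higher. For 7 of the 10, Higd1b and Cspg4 among them, every QZ1-hi library lay above every QZ1-lo library, as for 11.9% of all genes tested. The defining pericyte genes Rgs5 (0.957 and 0.216 CPM in QZ1-hi and QZ1-lo, log2 fold change 2.14) and Higd1b (1.22 and 0.239 CPM, log2 fold change 2.31) were low in both groups. They did not pass the edgeR test after adjustment. Neither did Cspg4, at 8.42 and 4.02 CPM (log2 fold change 1.06, edgeR adjusted p = 0.119), nor Notch3, at 7.46 and 5.80 CPM. No pericyte marker averaged 0 in either group.

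Of the other cell types, all 4 mesothelial markers rose (38.4 to 268 against 5.93 to 36.5 CPM summed), DESeq2 and limma voom calling 3 each. The highest mesothelial sum was that of QZ1-hi replicate 2, and the next was 66.1 CPM. Higher calls were also made for 3 of 4 platelet markers tested (17.6 to 36.7 against 3.79 to 9.30 CPM summed), platelets being a further store of PDGF. Smooth muscle markers had 2 higher and 1 lower of 5 (25.0 to 39.6 against 10.3 to 21.6 CPM summed), and the gene that fell, Cnn1, had 1 read in all QZ1-hi libraries together. Myofibroblast markers had 1 higher of 4, Aspn, which limma voom did not call (31.7 to 66.1 against 25.1 to 29.1 CPM summed). All 7 genes of the airway epithelial list fell (544 to 1165 against 2061 to 4361 CPM summed). That list includes Epcam and Cdh1, which the study also used as markers of alveolar epithelium. Alveolar type 1 markers had 1 higher and 3 lower of 5 (457 to 681 against 660 to 844 CPM summed), and alveolar type 2 markers had 1 higher of 7 (5966 to 10753 against 4753 to 7237 CPM summed). None of 6 leukocyte markers passed the edgeR test (2907 to 6216 against 2091 to 4111 CPM summed), although the sort had gated against CD45, and Ptprc, which encodes CD45, stood at 131 ± 64.2 and 125 ± 30.0 CPM (SD, n = 4 each). None of 3 erythroid markers passed it either (61.9 to 472 against 131 to 1464 CPM summed). By DESeq2 and limma voom both lists again had 0 calls, and at an unadjusted edgeR p under 0.05 they had 0 leukocyte and 2 erythroid genes.

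Set against single marker genes of the same library, as ratios of CPM and not of levels per length, the members differed in whether the groups overlapped. Pdgfra stood at 14.8% to 22.6% of the CPM of the fibroblast collagen gene Col1a2 in QZ1-hi and at 17.2% to 63.8% in QZ1-lo libraries, where the highest value was replicate 4. Pdgfb stood at 6.85% to 10.7% of the endothelial cadherin gene Cdh5 in QZ1-hi but at 67.5% to 164% in QZ1-lo libraries, without overlap. Since Pdgfb itself covered nearly the same range in both groups, this gap restates that of Cdh5, at 353 and 30.4 CPM. Pdgfrb varied from 39.4% to 147% of Des in QZ1-hi and from 33.3% to 165% in QZ1-lo libraries. Pdgfd lay at 2.47% to 6.46% of Vwf in QZ1-hi and 4.21% to 7.54% in QZ1-lo libraries. Pdgfa lay at 5.25% to 7.60% of Ager, the alveolar type 1 marker, in QZ1-hi and at 4.74% to 7.42% in QZ1-lo libraries. Against Epcam, the epithelial adhesion molecule gene, it lay at 22.1% to 34.4% in QZ1-hi and at 15.002% to 25.2% in QZ1-lo libraries, so its ratio depended on the epithelial marker chosen.

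The order of libraries within a group was also alike for some pairs. Pdgfrb had the same order as the endothelial sum in both groups (replicates 3, 1, 2, 4 from the top in QZ1-hi and 3, 2, 1, 4 in QZ1-lo). The QZ1-lo order was not particular to endothelium, being also that of the fibroblast and smooth muscle sums. Pdgfrb matched the order of the pericyte sum in QZ1-lo but not in QZ1-hi, where replicate 2 had the highest pericyte sum, 107 CPM, and the second-lowest Pdgfrb. Pdgfb had the endothelial order in QZ1-hi but not in QZ1-lo. Pdgfra matched the order of the fibroblast sum in neither group, but each mismatch was a swap of 2 libraries with close values. In QZ1-hi these were replicates 1 and 4, with Pdgfra at 45.3 and 48.4 CPM and sums of 1158 and 1108 CPM. In QZ1-lo they were replicates 2 and 3, with Pdgfra at 10.05 and 9.59 CPM and sums of 276 and 280 CPM. In the study's single-cell RNA-seq of Eml4-Alk lungs, Pdgfra and Pdgfrb were reported as expressed only in stromal cells, and the cell source of either was not tested here. These orders are descriptions over 4 libraries that share their total RNA and their scaling.

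**Figure D3:**
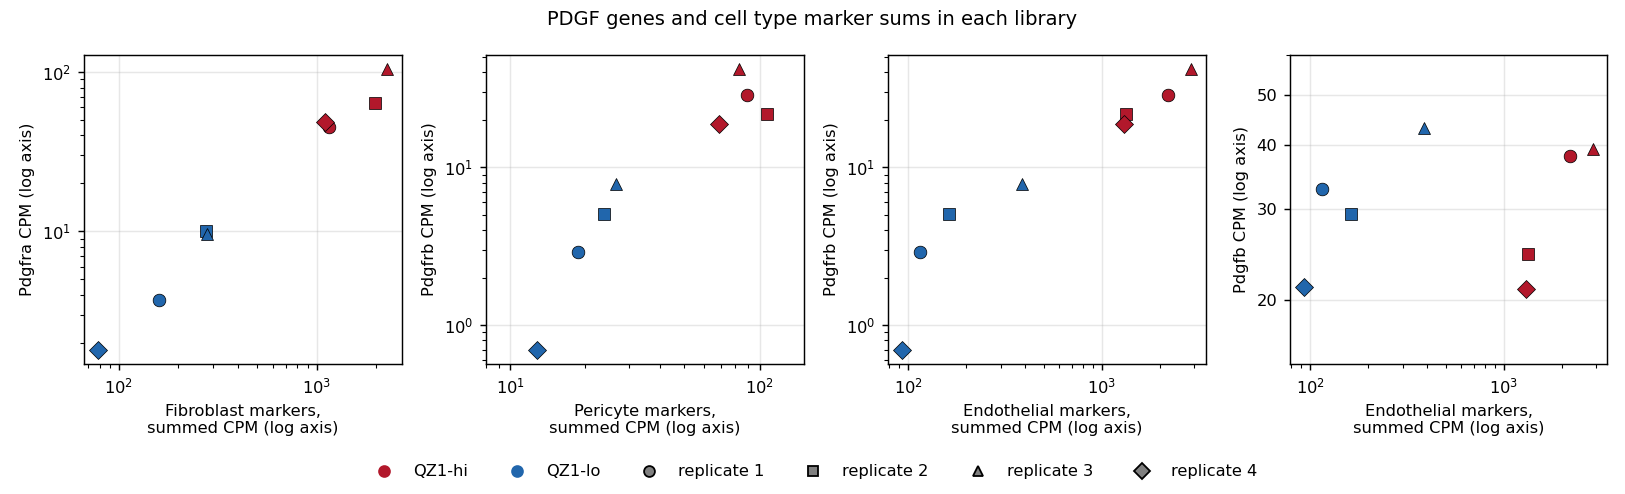
TMM-scaled CPM of Pdgfra, Pdgfrb and Pdgfb against the summed CPM of fibroblast, pericyte or endothelial markers in each library, all axes log scaled, QZ1-hi in red and QZ1-lo in blue. Pdgfra, Pdgfrb and the marker sums are all higher in each QZ1-hi than in each QZ1-lo library, whereas Pdgfb spans 21.04 to 39.4 CPM in QZ1-hi and 21.2 to 43.3 CPM in QZ1-lo although the endothelial sums are 1294 to 2882 and 93.3 to 385 CPM.

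The surrounding pathway was read from lists of 59 genes, of which 58 were tested, 13 rose and 4 fell. The median log2 fold change was 0.13 over these genes and 0.02 over all genes tested. The shares called over all genes, given above, were 9.88% higher and 8.21% lower.

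Among 7 proteases that process or activate PDGF chains, 2 rose and 1 fell, with a median log2 fold change of 0.31. Plat, the tissue plasminogen activator that cuts latent PDGF-C, rose from 4.77 ± 2.14 to 42.0 ± 17.3 CPM (SD, n = 4; log2 fold change 3.14, SE 0.36, edgeR adjusted p = 0.000305). Pcsk5, a proprotein convertase, rose by 1.36 on the log2 scale (edgeR adjusted p = 0.0333), from 8.38 to 21.5 CPM. St14 (matriptase), a membrane serine protease of epithelium that can cut PDGF-C and PDGF-D, fell from 123 ± 22.0 to 48.3 ± 14.3 CPM (log2 fold change -1.35, edgeR adjusted p = 0.00134). Plau, the urokinase gene, whose product can activate PDGF-D, stood at 21.4 ± 5.84 CPM in QZ1-hi and 17.2 ± 4.48 CPM in QZ1-lo (edgeR adjusted p = 0.444). Furin, Pcsk6 and Pcsk7 had log2 fold changes of 0.15, 1.17 and 0.13 and did not pass the test, with Pcsk6 nearest at an edgeR adjusted p of 0.0587.

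Co-receptors and proteins that bind PDGF or its receptors had 4 of 5 tested genes higher, 0 lower, and a median log2 fold change of 1.37. Lrp1, an endocytic receptor that associates with PDGFRβ, rose from 204 ± 51.7 to 527 ± 99.8 CPM (SD, n = 4; log2 fold change 1.37, edgeR adjusted p = 0.00110). The semaphorin and growth factor co-receptor gene Nrp1 rose from 75.7 ± 12.1 to 207 ± 43.8 CPM (log2 fold change 1.45, edgeR adjusted p = 0.000397). Sparc, whose matrix protein binds PDGF-B, rose from 185 to 351 CPM (log2 fold change 0.92, edgeR adjusted p = 0.00381). Pdgfrl, a receptor-like gene, rose from 0.428 to 1.94 CPM (log2 fold change 2.17, edgeR adjusted p = 0.0240) on 46 and 150 reads. Thbs1 stood at 437 and 591 CPM in QZ1-hi and QZ1-lo (edgeR adjusted p = 0.162), and A2m, with 184 and 23 reads, was removed by the filter.

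Most of the shared signaling machinery did not pass the test. Of 32 transducers, 4 rose and 2 fell, with a median log2 fold change of 0.08. Of 3 Src-family kinases, Fyn rose from 14.6 to 38.4 CPM (log2 fold change 1.40, edgeR adjusted p = 0.000540), Src fell from 62.7 to 33.4 CPM (log2 fold change -0.91, edgeR adjusted p = 0.00310), and Yes1 did not pass (log2 fold change 0.36, edgeR adjusted p = 0.173). Of 4 subunit genes of phosphoinositide 3-kinase, Pik3r1 rose (log2 fold change 0.61, edgeR adjusted p = 0.0116) and Pik3cb fell (-0.71, edgeR adjusted p = 0.0123), whereas Pik3ca and Pik3r2, at 0.11 and -0.10, did not pass. Phospholipase Plcg1 (0.79, edgeR adjusted p = 0.000972) and the adaptor Nck1 (0.72, edgeR adjusted p = 0.0214) rose. The 7 attenuators, which include the ubiquitin ligases Cbl and Cblb and the phosphatases Ptpn2 and Ptprj, had 0 calls by edgeR in either direction and a median log2 fold change of -0.09, with Ptprj at -0.33 (edgeR adjusted p = 0.180). DESeq2 and limma voom also called 0 of them, and at an unadjusted edgeR p under 0.05 there was 1.

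The other class III receptor tyrosine kinases, the closest relatives of the PDGF receptors, had a mixed pattern with their ligands, with 3 of 7 genes higher, 1 lower and a median log2 fold change of 0.53. Kit rose from 7.70 ± 5.32 to 55.4 ± 22.6 CPM (SD, n = 4; log2 fold change 2.85, edgeR adjusted p = 0.00114) and its ligand gene Kitl from 11.5 ± 5.80 to 60.1 ± 19.9 CPM (log2 fold change 2.39, edgeR adjusted p = 0.000839). Csf1 rose from 18.3 to 33.0 CPM (edgeR adjusted p = 0.0233), whereas its receptor gene Csf1r stood at 56.0 and 38.7 CPM in QZ1-hi and QZ1-lo (edgeR adjusted p = 0.243). Flt3 fell from 4.66 ± 4.26 to 0.606 ± 0.349 CPM (log2 fold change -2.91, edgeR adjusted p = 0.0148), a call that limma voom did not make.

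**Figure D4:**
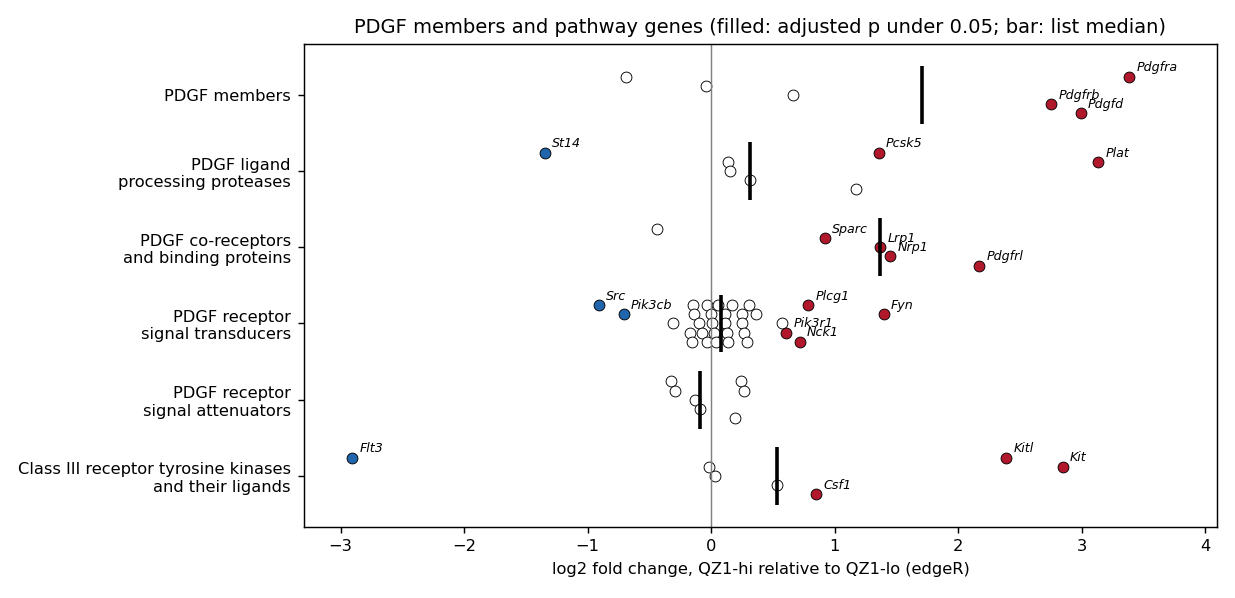
Log2 fold change of QZ1-hi relative to QZ1-lo (edgeR) for each tested gene of the PDGF family and of the 5 pathway lists, 1 point per gene, filled red or blue where the adjusted p was under 0.05 and open otherwise, with a bar at each list's median. Receptors, Pdgfd, Plat, Kit and Kitl lie farthest to the right, and the transducers and attenuators centre near 0, at medians of 0.08 and -0.09.

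Among 14043 genes, likeness to each member was measured as the root mean square difference of log2 CPM, each gene centred on its own mean over the 8 libraries. As the 8 libraries span both groups, this measure includes the difference between groups and in part restates the fold changes. Pdgfra lay nearest to Abi3bp (0.197), Mmp2 (0.208), the matrix metalloproteinase gelatinase A, and Nid1 (0.226), a basement membrane protein gene. Pdgfrb lay nearest to Bcl6b (0.171), Sod3 (0.237), the extracellular superoxide dismutase gene, and Ltbp1 (0.259), whose product binds latent TGF-β. The genes nearest to Pdgfd were farther away, namely Ptprd (0.264), Hoxa5 (0.288) and Grap (0.299). Pdgfa lay nearest to Top3a (0.138), F730043M19Rik (0.141) and Plp2 (0.158), Pdgfb to Tnfsf9 (0.144), Capn5 (0.159) and Dnlz (0.165), and Pdgfc to Prune2 (0.115), Zfp993 (0.134) and Mitf (0.141). Within the family the receptors were the closest pair (0.452), followed by Pdgfa and Pdgfb (0.559) and by Pdgfd and Pdgfra (0.761), and Pdgfa and Pdgfra were the farthest apart (2.37).

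The fold changes of Pdgfra, Pdgfrb and Pdgfd kept their direction and their call in edgeR with each of the 8 libraries left out and under each other tool, scaling and filter tried. Leaving out 1 library gave log2 fold changes of 3.05 to 3.70 for Pdgfra, 2.41 to 3.28 for Pdgfrb and 2.63 to 3.27 for Pdgfd. Scaling by library size alone shifted the median of all genes to -0.44. Relative to that median, Pdgfra stood at 3.41, Pdgfd at 3.03, Pdgfrb at 2.79, Pdgfc at 0.57, Pdgfb at -0.01 and Pdgfa at -0.63 on the log2 scale. Pdgfa was called lower under that scaling (log2 fold change -1.07, edgeR adjusted p = 0.0203), as were 16.1% of all genes.

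**Figure D5:**
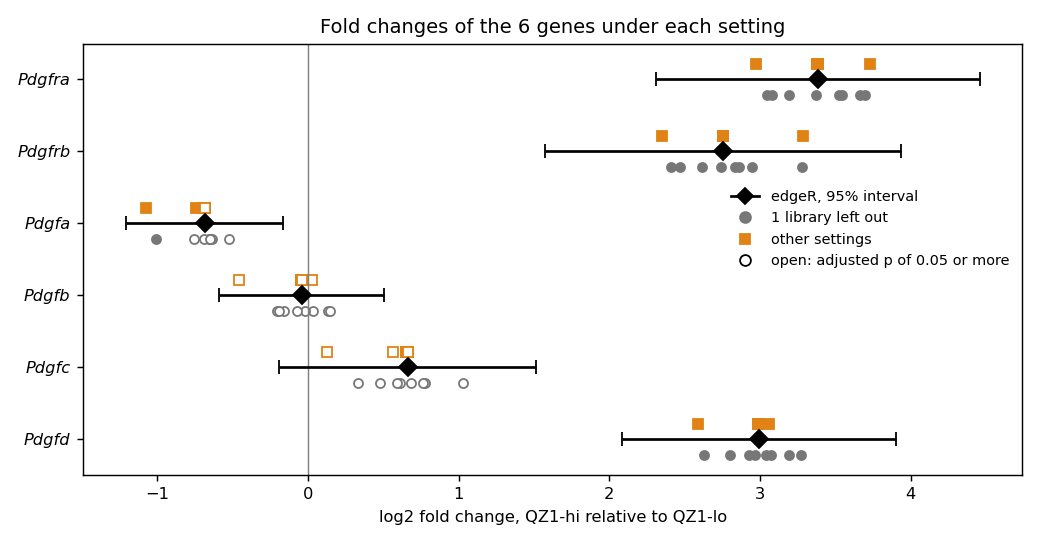
Log2 fold change of QZ1-hi relative to QZ1-lo for the 6 genes, with the edgeR estimate and its 95% interval in black, estimates with 1 library left out in grey and those under other tools, scalings and filters in orange, open where the adjusted p was 0.05 or more. Pdgfra, Pdgfrb and Pdgfd stay above 2 in every setting, Pdgfa stays below 0 with some calls, and Pdgfb lies on both sides of 0.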

How the data were processed

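RNA from sorted QZ1-hi and QZ1-lo lung cells was sequenced by the authors from SMARTer stranded total RNA libraries on a NextSeq500. The deposited values are whole-number read counts for each Entrez Gene identifier, which the authors obtained with Rsubread and left without normalization. The submitters' processing notes name mm10 and DESeq2. The aligner and the strand setting of the counting are not given in the sources used here, and the purity of the sorted fractions was not assessed here. Symbols were matched for 25293 genes, 1886 having none, and 1 of 144 listed genes (Hbb-bt) had no match.

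Counts were tested in R 4.3.3 with edgeR 4.0.16 (TMM, filterByExpr, quasi-likelihood F test) over 15583 genes, with Benjamini-Hochberg adjustment and a threshold of 0.05. Each SE was computed as |log2 fold change| over the root of the F statistic. RPKM used merged exon lengths of GENCODE M21, and no other lengths were tried. For single values, a two-sided exact permutation test ran over 70 assignments, with a smallest possible p of 0.0286. Floors of 3 counts cover counting error only, as PCR copies of a molecule were not marked. The procedure was tested on simulated data. Alternatives were DESeq2 1.42.0, limma 3.58.1 (voom with quality weights), other scalings and filters, robust shrinkage, a threshold of 0.01 and each library left out.

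The members, marker lists and pathway lists were chosen with earlier results of these data known. Named genes were the members, genes of the lists, the 3 genes nearest to each member among those with a mean of at least 1 CPM, and genes sharing exon bases with a member. Values of 1 gene of the lists are not reported here.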

Additional observations from a re-analysis of the deposited data

How the results depend on the processing

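No paired analysis was possible because neither labels nor methods say which libraries of the 2 populations share a mouse, so the tests ignore any such sharing. Pdgfra, Pdgfrb and Pdgfd kept direction and call under every alternative run, from 2.97 to 3.73, 2.35 to 3.28 and 2.59 to 3.06 on the log2 scale over the tools, scalings and filters. The highest edgeR adjusted p with 1 library left out was 0.0164, for Pdgfrb. Pdgfa was called lower, making 1 member lower instead of 0, by DESeq2 (-0.70), limma voom (-0.74) and edgeR scaled by library size only (-1.07). With 1 library left out it ran from -1.01 to -0.53, the count of members lower from 0 to 1, and it was called only without QZ1-hi replicate 1. Pdgfb, not called under any alternative, turned to 0.025 in limma voom and ran from -0.20 to 0.15 with 1 library left out, with 0.03 without QZ1-hi replicate 2, 0.14 without QZ1-hi replicate 4 and 0.15 without QZ1-lo replicate 3. Scaling by library size only gave 882 genes higher and 2509 lower instead of 1540 and 1280 (26.0% of calls higher instead of 54.6%), and called 2 attenuators instead of 0. At an adjusted p of 0.01, 902 genes were higher and 665 lower, with 3 transducers and 2 class III genes called. The cause of these changes was not tested. Levels under 0.0894 to 0.179 CPM could not be measured, and Pdgfrb in QZ1-lo replicate 4, at 0.696 CPM, came nearest to that limit.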
